A study of Caenorhabditis elegans with 9 samples.

Results

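GATA factors are zinc finger proteins that bind DNA at sites with the core letters GATA, and in Caenorhabditis elegans they direct the formation of the endoderm (the future intestine) and of the epidermis. Open chromatin was examined here at 10 such genes: med-1, med-2, end-1, end-3, elt-1, elt-2, elt-3, elt-6, elt-7 and egl-18. They were taken by gene symbol from the gene tables of the study, out of 19971 protein-coding genes, and each symbol matched 1 gene. The tables assigned them 16 of 16084 noncoding DNase I hypersensitive sites (DHS) in L1 arrest and 29 of 26644 in the embryo.

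The study mapped DHS by DNase-seq, in which nuclei are treated with DNase I, an enzyme that cuts exposed DNA, and short released pieces are sequenced. All animals were wild-type N2. The first group was larvae held in L1 arrest (5 replicates), a developmental pause that hatchlings enter when no food is present, and the second was embryos of about 40 cells (4 replicates). Nuclei came from whole animals, and the lists merge the replicates of each stage, so no spread between replicates can be given and no stage difference below carries a test. The number of reads behind a site is not given in the lists. In whole animals, a site open in few cells cannot be told apart from a site weakly open in many.

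In the endoderm, the maternal factor SKN-1 switches on med-1 and med-2 in the mother cell of endoderm and mesoderm, and the MED proteins in turn help to switch on end-1 and end-3. The END proteins then start elt-2 and elt-7, which remain on in the intestine and drive its differentiation. In the epidermis, elt-1 sets the fate of the early precursors, elt-3 acts below it in the main body epidermis, and egl-18 and elt-6, which lie side by side, act in the lateral seam cells.

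Open sites were unevenly spread over the 10 genes, and egl-18 had more than any other member in each stage. In L1 arrest egl-18 held 9 of the 16 noncoding DHS, elt-3 and elt-7 held 3 each and elt-1 held 1. In the embryo egl-18 held 14 of the 29 entries, elt-3 held 5, elt-1 held 4, elt-7 held 3, and end-1, elt-2 and elt-6 held 1 each. med-1, med-2 and end-3 had none in either list. A noncoding entry is the part of a DHS left after exons were removed, and the 29 embryo entries came from 28 DHS because 1 site at egl-18 was split by an exon.

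**Figure D1:**
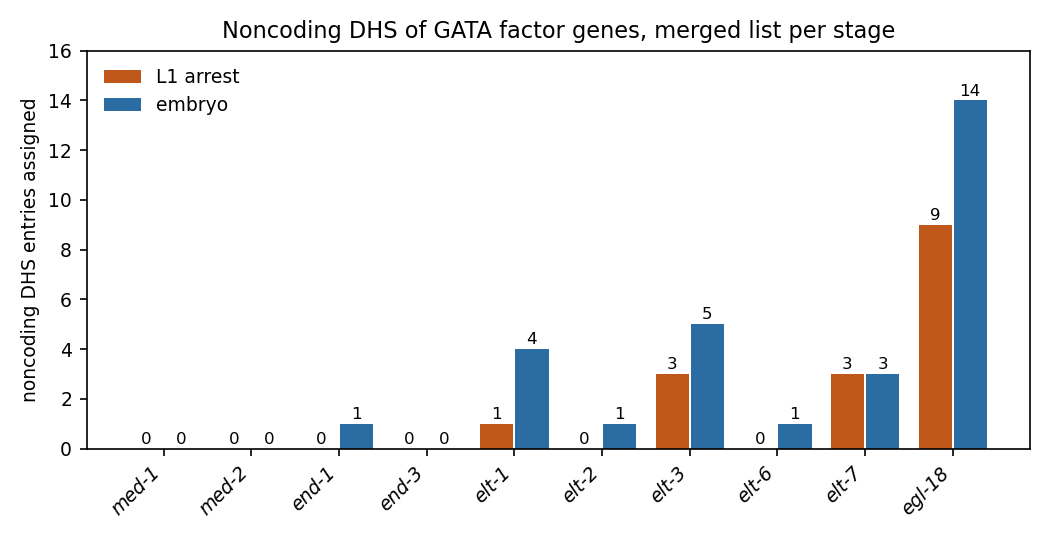
Number of noncoding DHS entries (vertical axis) assigned to each of the 10 genes in the merged L1 arrest list (left bars) and the merged embryo list (right bars). egl-18 had 9 in L1 arrest and 14 in the embryo, and med-1, med-2 and end-3 had 0 in both.

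Thus 4 of 10 genes had a DHS in L1 arrest, where 38.9% of all coding genes had one, and 7 of 10 had a DHS in the embryo, against 52.4% of all coding genes. The L1 share was close to that of all genes. The same 4 genes had a DHS in both stages (37.1% of all coding genes), 3 had one in the embryo list alone (15.3%), and none had one in the L1 list alone (1.75%). Of the 7 genes with any DHS, 6 had fewer in L1 arrest than in the embryo, as did 60.8% of coding genes with any DHS. elt-7 had 3 in each, and in the lists as deposited no member had more in L1 arrest than in the embryo (7.13% of coding genes). L1 entries made up 35.6% of the members' entries of both stages, against 37.6% of all noncoding DHS, so the 2 shares were close. When the embryo list was cut to the L1 number by score, 21 embryo entries remained, against 16 in L1 arrest, and end-1 and elt-2 lost their only site. egl-18 kept all 14, against 9 in L1 arrest. elt-3 and elt-7 kept 2 each, against 3 each in L1 arrest, so both then had more in L1 arrest than in the embryo. elt-1 kept 2, against 1 in L1 arrest, and elt-6 kept 1, against 0.

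The number at egl-18 was high for the genome. It was among 88 coding genes (0.441%) with at least 9 DHS in L1 arrest and among 66 (0.330%) with at least 14 in the embryo. These counts were not scaled to the length of a gene and its flanks, and longer stretches can hold more sites. egl-4, the next coding gene on its lower side, had 9 in L1 arrest and 13 in the embryo. The pair of numbers of egl-18 was shared by 4 other genes with a symbol. By the summed difference of both numbers and then of the best score percentile in each stage, the 3 most like egl-18 were ptp-1, fkh-7 and sem-2, a comparison over 2 stages only. Each had 9 DHS in L1 arrest and 14 in the embryo, and their best percentiles differed from those of egl-18 by a summed 6.64, 22.4 and 56.0 points in that order. For the other members the numbers were common: 137 other genes with a symbol had the same pair as elt-7, 96 the same as elt-3 and 93 the same as elt-1.

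The deposited score of a site was used to rank it within its own list, as the percentage of noncoding DHS of that stage with a lower score, ties split evenly (the score percentile), since no label or header states its scaling. The members' median percentile was 53.9 in L1 arrest, from 0.155 to 96.4, and 66.9 in the embryo, from 2.48 to 97.8. At egl-18 the median was 55.6 in L1 arrest and 80.3 in the embryo, and at the other members it was 31.7 in L1 arrest and 35.2 in the embryo. The median of egl-18 was thus the higher in each list, while single sites of elt-7 and elt-3 ranked above many of its own. Over all noncoding DHS that overlap one of the other stage, the median was 52.3 in L1 arrest and 70.9 in the embryo. A shared site thus tends to stand higher in the longer embryo list, and percentiles of the 2 lists are not directly comparable.

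**Figure D2:**
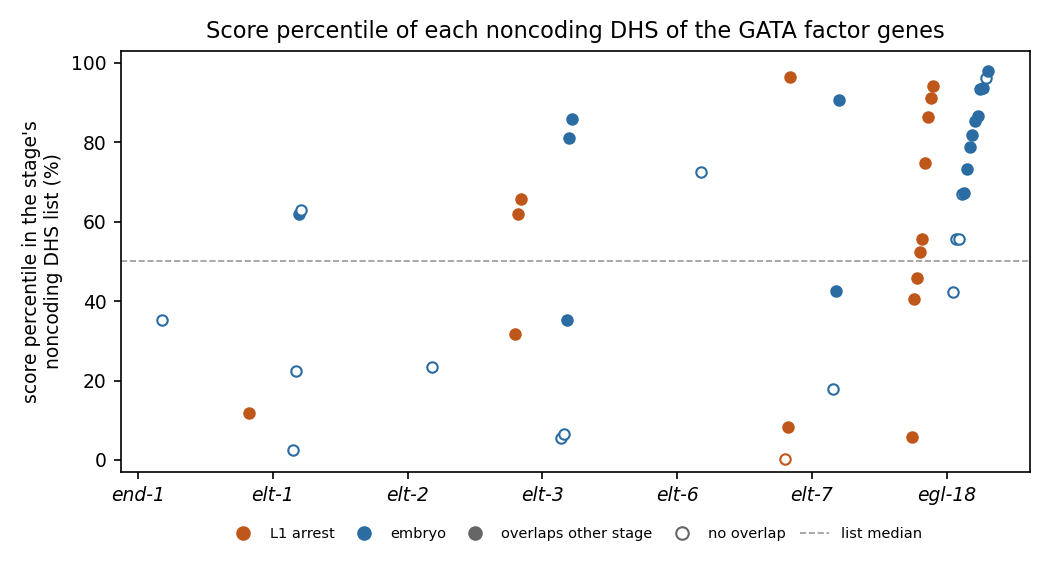
Score percentile within the stage's noncoding list (vertical axis, percent) of each noncoding DHS of the 7 genes with any, L1 arrest left of embryo for each gene. Filled points overlap a noncoding DHS of the other stage, open points do not, and the dashed line is the list median. Each gene other than elt-6 had a site below the median in the embryo list.

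For the first genes of the endoderm cascade few noncoding sites were assigned, which is common among genes. Of 10933 genes with a symbol, 4763 others had 0 in both stages, as med-1, med-2 and end-3 did, and 1235 others had the numbers of end-1. Exonic DHS were not assigned to genes. end-1, the factor that starts endoderm differentiation, had no DHS in L1 arrest, and in the embryo it had 1, at chrV:13983041-13983190 (ce10), 1948 bp from the gene. This site scored 161 (percentile 35.2), held 1 footprint of 30 bp, and lay 8790 bp from the nearest L1 DHS of any kind. No noncoding DHS was assigned to end-3, its partner nearby on the same chromosome. The genes on either side of end-3 were aip-1, with 0 DHS in L1 arrest and 1 in the embryo, and srh-308, with 0 in each.

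med-1 on chromosome X and med-2 on chromosome III had no row in any table. They are near-identical copies of one another, and no label states how reads that match both were treated, so a count of 0 does not show that they were closed. Around med-1, T24D3.2 had 1 DHS in L1 arrest and 3 in the embryo, and tsct-1 had 2 in L1 arrest and 6 in the embryo. Around med-2, K04C2.7 had none and brd-1 had 1 in each stage. elt-4, the GATA factor gene near elt-2 that is not among the 10, had none either.

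elt-2, the main intestinal GATA factor, had no noncoding DHS in L1 arrest. In the embryo it had 1, at chrX:10480601-10480750, 489 bp from the gene, with a score of 146 (percentile 23.5) and 2 footprints of 8 and 29 bp. The nearest L1 DHS in the full list, exonic sites included, was chrX:10482381-10482530, 1630 bp away. The full list is not annotated to genes, so that site was not assigned.

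elt-7, which works beside elt-2 in the intestine, had the highest-scoring noncoding L1 site of all members. This DHS, chrV:4773341-4773490, lay 250 bp from the gene and had the same ends in both lists. It scored 855 in L1 arrest (rank 575 of 16084, percentile 96.4) and 481 in the embryo (rank 2476 of 26644, percentile 90.7). The site thus stood near the top of each list. A further DHS 2310 bp from the gene in L1 arrest scored 161 (percentile 8.35), and its embryo counterpart, 2290 bp from the gene, scored 172 (percentile 42.5). Ranked only among sites shared by the stages, this pair stood at percentile 7.70 in L1 arrest and 16.2 in the embryo.

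The remaining elt-7 site of each stage had no overlap in the other. In L1 arrest it was chrV:4770521-4770670, 2 bp from the opposite end of the gene, and it was the only member site in the authors' list of L1-arrest-associated DHS, which holds 11.4% of L1 noncoding DHS. Its score of 154 ranked 16057 of 16084, near the bottom of the list. The authors' arrest-associated footprint list held 1 footprint in it, chrV:4770647-4770665. In the embryo the unshared site was intronic, chrV:4771581-4771714, with a score of 139 (percentile 17.9) and no footprint, 910 bp from the L1 site. One of the authors' 57 gene lists for embryo motifs, drawn from intronic DHS, named elt-7 among its 123 genes, and this was the gene's only intronic embryo DHS.

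Among the epidermal genes, elt-1 had 1 DHS in L1 arrest and 4 in the embryo. The shared site, chrIV:9610001-9610150, lay 5007 bp from the gene and scored 164 in L1 arrest (percentile 11.9) and 218 in the embryo (percentile 61.9). Ranked only among sites shared by the stages, it stood at percentile 10.8 in L1 arrest and 36.6 in the embryo. The embryo list added a site 1767 bp from the gene (score 222, percentile 62.9) and 2 intronic sites of lower rank, with percentiles of 22.3 and 2.48. The full list also held sites between the gene end nearest to the intergenic sites and the last intronic DHS that have no noncoding part. One of these, chrIV:9615961-9616110, was open in both stages. It scored 222 in L1 arrest (percentile 55.7 of the full list) and 266 in the embryo (percentile 74.8). Another, chrIV:9616981-9617130, was in the embryo list alone with 188 (percentile 52.1).

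elt-3 had 3 DHS in L1 arrest and 5 in the embryo, and each L1 site overlapped an embryo site. At the site next to the gene, 122 bp away in L1 arrest and 142 bp in the embryo, the score was 242 in L1 arrest (percentile 61.9) and 161 in the embryo (percentile 35.2). Both intronic sites had the opposite order. The first, chrX:13937021-13937170 in L1 arrest, scored 186 (percentile 31.7), and its embryo counterpart, which begins 40 bp lower, scored 316 (percentile 81.0). The second, chrX:13940161-13940214 in each list, scored 254 in L1 arrest (percentile 65.8) and 373 in the embryo (percentile 85.9). The 2 sites of elt-3 in the embryo list alone, 1 intronic and 1 lying 1222 bp from the gene, were among the weakest of the embryo list, with percentiles of 5.60 and 6.45. A further embryo site without a noncoding part and without an L1 overlap, chrX:13940781-13940930, scored 137 (percentile 16.3 of the full embryo list).

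elt-6 and egl-18 are neighbours on chromosome IV, and the sites fell almost wholly to egl-18. elt-6 had none in L1 arrest and 1 intronic site in the embryo, chrIV:1919770-1919833, with a score of 260 (percentile 72.5) and 1 footprint of 18 bp. The sites given to egl-18 ran in the embryo from 10694 bp outside the gene to its last intronic site, ending at chrIV:1917124. The deposited distances place the near end of the gene at position 1902324, and from there to the end of the last intronic site is 14801 bp. In the RefSeq gene table of WBcel235, 4 noncoding RNA genes stand between egl-4 and egl-18, and the authors left noncoding RNA genes out of the assignment.

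**Figure D3:**
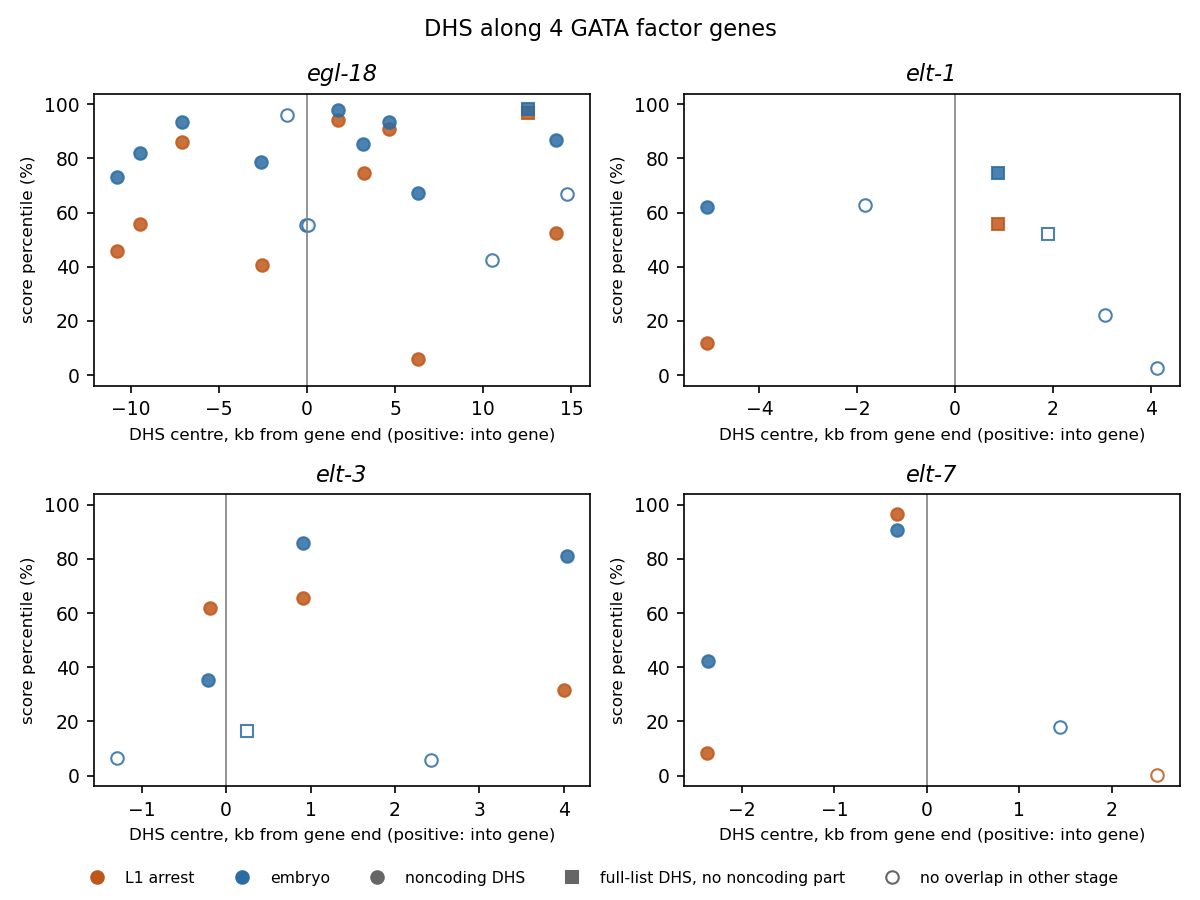
Score percentile (vertical axis, percent) of each DHS of egl-18, elt-1, elt-3 and elt-7 against the distance of its centre from the gene end nearest to the intergenic sites (horizontal axis, kb, positive into the gene). Circles are noncoding DHS ranked in the noncoding list, squares are full-list DHS without a noncoding part ranked in the full list, and open symbols have no overlap in the other stage. At egl-18 all 9 L1 circles have an embryo circle beside them, and the open L1 circle of elt-7 lies past the other end of that gene.

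All 9 L1 sites of egl-18 overlapped an embryo site: 4 outside the gene and 5 in introns. The highest in each list was the intronic site chrIV:1904001-1904150, with a score of 627 in L1 arrest (percentile 94.1) and 1333 in the embryo (percentile 97.8). The shared intronic site at chrIV:1906901-1907050 in L1 arrest also ranked high. It scored 488 in L1 arrest (percentile 91.0) and 596 in the embryo (percentile 93.3). The distal shared site, chrIV:1895141-1895290, lay 7034 bp from the gene. It scored 389 in L1 arrest (percentile 86.2) and 614 in the embryo (percentile 93.6). Ranked only among shared sites, the intronic site stood at percentile 90.2 in L1 arrest and 88.1 in the embryo. The distal site stood at 85.1 in L1 arrest and 88.6 in the embryo. The strongest DHS in the gene was not a noncoding one. chrIV:1914781-1914930, in the full list without a noncoding part, scored 963 in L1 arrest (rank 790 of 23670) and 1677 in the embryo (rank 735 of 41825).

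The embryo list held 5 entries at egl-18 with no L1 overlap, from 4 DHS. One of them, chrIV:1901121-1901270, was strong: it scored 885 (rank 1039 of 26644, percentile 96.1), lay 1054 bp from the gene, held 3 footprints, and lay 1290 bp from the nearest L1 DHS. Among the 1039 embryo noncoding DHS with at least this score, 43 (4.14%), this site included, overlapped no L1 noncoding DHS. The site was picked as the strongest such entry of egl-18, so the share describes the list and not the gene. The DHS split by an exon (chrIV:1902241-1902390) scored 200 and held no footprint in either piece. The other 2 were intronic, at percentiles 42.3 and 66.9. Another of the authors' motif lists, drawn from noncoding embryo DHS, named egl-18 among 32 genes without giving the site.

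Over all members, 15 of 16 L1 sites overlapped an embryo noncoding DHS, against 88.6% of the whole L1 list, and 15 of 29 embryo entries overlapped an L1 noncoding DHS, against 53.5% of the whole embryo list. Both shares were near those of the lists. Embryo entries with an L1 overlap had a median percentile of 81.9 and those without one 38.8. In the whole embryo list these medians were 70.9 and 27.3, so the same order held there. Of the L1 sites, 7 of 16 were intronic (40.8% of all rows of the L1 gene table) and 3 lay outside introns within 300 bp of the gene (18.7%). In the embryo 14 of 29 were intronic (44.3%) and 4 lay within 300 bp (19.1%), of which 2 were pieces of the same egl-18 DHS. Of the 16 L1 sites 1 was trimmed to under 150 bp (20.6% of the L1 list), and of the 29 embryo entries 8 were (27.1%).

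A second ranking placed the 15 common sites among all 14241 noncoding sites shared by the stages, so that both ranks refer to the same set. In L1 arrest 3 of the 15 ranked higher than in the embryo, against 45.1% of all shared sites. These 3 were the site next to elt-3 (percentile 59.7 in L1 arrest and 11.6 in the embryo), the site next to elt-7 (96.1 in L1 arrest and 83.6 in the embryo) and an egl-18 intronic site with a difference of 2.1 points. The sites next to elt-3 and elt-7 were the only shared sites of the members within 300 bp of a gene and outside introns, too few to describe sites so placed in general. The widest differences the other way were 39.0 points at the egl-18 intronic site chrIV:1908521-1908670 (5.27 in L1 arrest and 44.3 in the embryo), and 37.1 points at the first elt-3 intronic site. As 9 of the 15 sites belong to 1 gene, the count is a description of these loci.

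**Figure D4:**
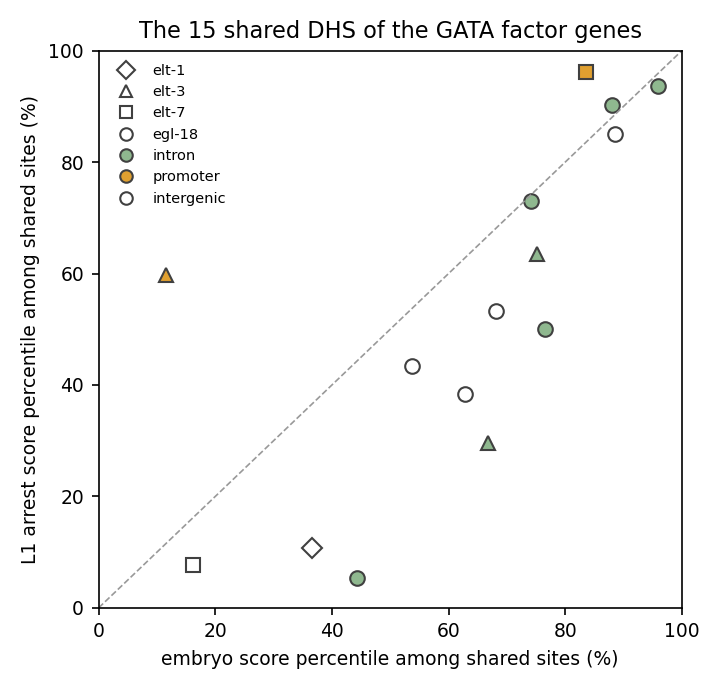
Score percentile among the 14241 shared sites in L1 arrest (vertical axis, percent) against that in the embryo (horizontal axis, percent) for the 15 shared sites of 4 genes, with the gene shown by shape and the location by fill. Points above the dashed line of equal rank were higher in L1 arrest, 3 of the 15, and the triangle far above it is the site next to elt-3.

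Footprints are short stretches inside a DHS with fewer cuts than their surroundings, as left by a bound protein, and overlapping calls were merged here. All 16 L1 sites of the members held at least 1 footprint, against 84.0% of L1 noncoding DHS, and 26 of 29 embryo entries did, against 82.0%. A member site held 2.06 footprints on average in L1 arrest and 2.45 in the embryo, against 2.07 per DHS of the whole L1 list and 2.15 of the whole embryo list. At egl-18 there were 18 footprints in L1 arrest and 40 in the embryo. elt-3 had 5 in L1 arrest and 13 in the embryo, elt-7 had 7 in L1 arrest and 8 in the embryo, and elt-1 had 3 in L1 arrest and 6 in the embryo.

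In the parts common to the shared sites, 26 of 31 L1 footprints touched an embryo footprint, against 78.2% over all shared sites, and 32 of 51 embryo footprints touched an L1 footprint, against 63.8%. The L1 footprints covered 40.0% of the common bases and the embryo footprints 52.3%. Over all shared sites these shares were 36.8% in L1 arrest and 43.7% in the embryo. Bases under a footprint in both stages made up 74.2% of the members' L1 footprint bases and 56.8% of their embryo footprint bases, against 64.9% and 54.6% over all shared sites.

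The site next to elt-7 had the most shared footprint bases. Its 150 bp held 5 footprints in L1 arrest and 6 in the embryo, covering 107 bp in L1 arrest and 117 bp in the embryo, with 95 bp in common. Every one of them touched a footprint of the other stage, which is likely where footprints cover most of a site in both stages. The widest in L1 arrest, chrV:4773366-4773401, was met in the embryo by chrV:4773363-4773390 and chrV:4773395-4773401. At the strongest egl-18 intronic site a stretch of merged footprint calls ended at the same base in each stage. It was chrIV:1904051-1904108 in L1 arrest (6 calls) and chrIV:1904060-1904108 in the embryo (5 calls). At the distal egl-18 site the footprints chrIV:1895183-1895212 and chrIV:1895227-1895256 of L1 arrest lay wholly inside embryo footprints. At chrIV:1908521-1908670, by contrast, the common part held a footprint of 9 bp in L1 arrest and one of 27 bp in the embryo, with no base in common.

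**Figure D5:**
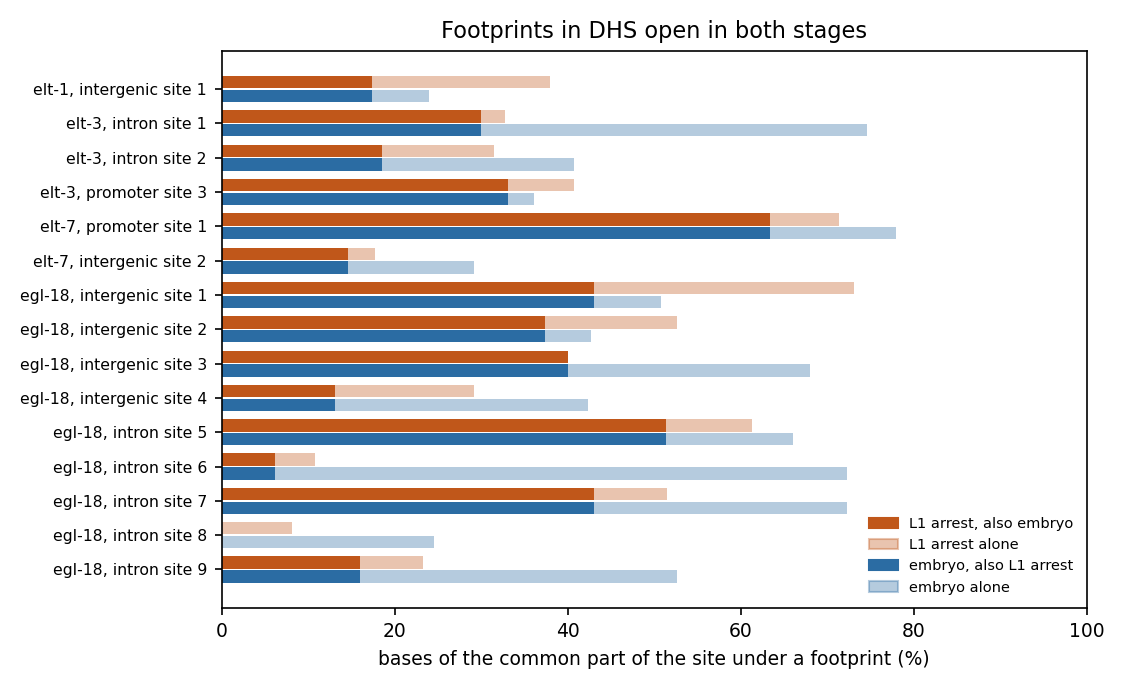
Percentage of the bases common to both stages' DHS that lay under a footprint (horizontal axis) at each of the 15 shared sites, L1 arrest above embryo. The dark part of each bar was under a footprint in both stages and the pale part in that stage alone. At the elt-7 promoter site 95 of 150 bp were under a footprint in both stages, and at egl-18 intron site 8 none were.

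Genes that act above and below these factors were counted in the same way. Of 12 regulators upstream of the endoderm, 9 had a noncoding DHS in L1 arrest (38.9% of all coding genes) and 11 in the embryo (52.4% of all coding genes). lit-1, a Nemo-like kinase of the Wnt pathway, had 11 DHS in L1 arrest and 13 in the embryo, wrm-1, a beta-catenin, had 2 in L1 arrest and 5 in the embryo, and skn-1 had 2 in L1 arrest and 4 in the embryo. pop-1, the TCF factor through which Wnt signals reach the end genes, had 4 in L1 arrest, 1 of them arrest-associated, and 3 in the embryo. mom-2, a Wnt ligand, had 0 in L1 arrest and 2 in the embryo, and mom-5, a Frizzled receptor, had none. The median gene of this list had 1.5 in L1 arrest and 3 in the embryo.

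Of 18 intestinal effector genes 9 had a DHS in L1 arrest (38.9% of all coding genes) and 13 in the embryo (52.4%), with a median of 0.5 in L1 arrest and 1.5 in the embryo. act-5, an actin of intestinal microvilli, had 10 in L1 arrest, 3 of them arrest-associated, and 8 in the embryo. itr-1, the inositol trisphosphate receptor, had 4 in L1 arrest and 2 in the embryo, and 3 of the L1 sites were arrest-associated. Over the 18 genes 6 of 24 L1 sites were arrest-associated, all at act-5 and itr-1, against 11.4% of the L1 list. In the upstream list 2 of 26 were, at lit-1 and pop-1, and in the epidermal list 3 of 39, at rnt-1, bro-1 and vab-10. asp-1, an aspartic protease, had 3 in L1 arrest and 4 in the embryo. ges-1, a gut esterase long studied as a target of GATA factors, had 1 in each. mtl-1, mtl-2, pho-1, cpr-6 and inx-16 had none in either stage.

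Of 16 epidermal regulators and effectors 12 had a DHS in L1 arrest (38.9% of all coding genes) and 14 in the embryo (52.4%), with a median of 1 in L1 arrest and 2 in the embryo. ajm-1, an apical junction protein, had 7 in L1 arrest and 14 in the embryo. vab-10, a spectraplakin that anchors the epidermis, had 9 in L1 arrest and 12 in the embryo. nhr-25, a nuclear hormone receptor, had 4 in L1 arrest and 10 in the embryo. eff-1, a cell fusion protein, had 5 in L1 arrest and 7 in the embryo. rnt-1, a Runx factor, had 6 in each, and its partner bro-1 had 2 in L1 arrest and 1 in the embryo. dpy-7, a cuticle collagen, had 0 in L1 arrest and 3 in the embryo. Genes with fewer DHS in L1 arrest than in the embryo numbered 9 of 11 with any DHS in the upstream list, 8 of 13 in the intestinal list and 10 of 14 in the epidermal list, against 60.8% of all coding genes with any.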

How the data were processed

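Nuclei of L1 arrest larvae (5 replicates) and embryos (4 replicates) were digested with DNase I and sequenced with reads of 50 or 76 bp, lengths that are mixed within each stage, per the labels. FastQC, Bowtie 1.0.0, SAMtools and ce10 are named in the submitters' processing notes. The authors called peaks with HOTSPOT version 3, kept those at an IDR level of 0.1, removed repeats and blacklisted regions, assigned genes from WormBase WS241 models and called footprints with DNase2TF at an FDR of 0.05, per the series design text. The deposited peak and footprint scores have a scaling that no label or header states. The embryo gene table holds no score, so scores were joined by position.

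Positions (ce10) are 1-based. Intervals sharing 1 bp or more counted as overlapping, overlapping footprints were merged, and shared sites were pairs in which each DHS was the best overlap of the other. Python 3.11.15 was used, and the overlap code was tested on simulated intervals. RefSeq (WBcel235) served for names and for neighbouring genes. All 10 members, elt-4 and 3 pathway lists were named by a fixed rule, and for brevity only some genes of the lists appear. The members and lists were chosen with earlier results of these data known. Sequences of the sites and of the proteins were not analysed here. Other settings tried varied the footprints counted, DHS width, score limit, list length, gene assignment and overlap.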

Additional observations from a re-analysis of the deposited data

How the results depend on the processing

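The lists are merged per stage, so leaving out replicates was not possible. No paired analysis was possible because the merged lists hold no replicate columns. Of the settings planned, only the limit to sites above their list's median score moved a count by more than 1.5 times: 9 L1 and 19 embryo member entries remained, and 8 L1 and 8 embryo entries overlapped each other. Without egl-18, an alternative added on seeing the data, there were 7 L1 and 15 embryo entries, 6 of each were shared, and 7 in L1 arrest and 14 in the embryo held a footprint. Counts stayed within 1.5 times with 50% reciprocal overlap, with overlap against the full lists, with rows naming no other gene, with the embryo list cut to the L1 number, with DHS of at least 150 bp, and with stricter footprints. The arrest-associated count was 1 also when exonic embryo DHS were counted as overlaps. Before trimming, which was likewise added later, the embryo had 28 DHS.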
